A study of Saccharomyces cerevisiae with 12 samples.

Results

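Stable unannotated transcripts (SUTs) are non-coding RNAs of budding yeast that are seen in cells with intact RNA decay. They were taken here as the rows of the count table whose name starts with SUT and that overlap no protein-coding row on the same chromosome and strand. Of 719 SUT rows among 12768 rows in all, 64 overlapped a protein-coding row on their strand, which left 655 SUTs. No row was named newSUT. RNA of 12 cultures of Saccharomyces cerevisiae was sequenced after enrichment for poly(A), 4 each of pup2-ts, rpn5-ts and WT, which the submitters call biological replicates. PUP2 encodes a subunit of the alpha ring of the proteasome core and RPN5 a subunit of the lid, and the ts strains carry temperature-sensitive alleles of them. The pup2-ts strain is MATa with his3Δ1, leu2Δ0, met15Δ0, ura3Δ0, lys2Δ0, a can1 deletion that holds LEU2 and His3 under the MFA1 promoter, and the pup2-ts allele linked to URA3. The rpn5-ts strain has the same genotype with rpn5-ts linked to URA3 in place of the pup2-ts allele. The WT strain is MATa with his3Δ1, leu2Δ0, met15Δ0 and ura3Δ0, so lys2Δ0, the can1 cassette and URA3 also separate both mutants from WT, and their part in a difference from WT cannot be told apart from that of the ts allele. Cultures grew in YPD to an optical density near 0.5 without treatment, and the labels used here give no growth temperature.

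SUTs are made by RNA polymerase II, capped and polyadenylated, and many start in the nucleosome-poor region in front of a protein-coding gene and run away from it, as divergent transcripts. Others run antisense through a gene, and antisense transcription is known to lower the level of some sense genes in yeast. Cryptic unstable transcripts (CUTs) start in similar places but are ended by the Nrd1 complex and degraded by the nuclear exosome, whereas SUTs reach the cytoplasm and are degraded in part by Xrn1 and nonsense-mediated decay. Proteasome genes are switched on together by Rpn4, an activator that is itself degraded by the proteasome and that binds the proteasome-associated control element (PACE).

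Of the 655 SUTs, 3 start within 500 bases of a proteasome gene on the other strand, and they were also the only SUTs with the PACE letters GGTGGCAAA, on either strand, in the 300 bases before their start. By the same search, 0.458% of the SUTs and 1.456% of 5836 protein-coding rows held PACE, as did 27 of 34 proteasome genes. The spacers between the gene's start and the SUT's start are shown because the SUT and the gene share them. They were read from the RefSeq R64 (sacCer3) genome at chrV:177590-177772 for SUT508 and PRE1, chrIV:1261386-1261576 for SUT488 and RPT3 and chrVIII:164765-164977 for SUT155 and RPN1. Each runs 5′ to 3′ on the SUT's strand, which is minus for SUT508 and SUT488 and plus for SUT155, from the base next to the gene to the base next to the SUT, with PACE in capitals. In all 3 the element reads GGTGGCAAA on the strand of the proteasome gene, so that it appears as TTTGCCACC here.
SUT508: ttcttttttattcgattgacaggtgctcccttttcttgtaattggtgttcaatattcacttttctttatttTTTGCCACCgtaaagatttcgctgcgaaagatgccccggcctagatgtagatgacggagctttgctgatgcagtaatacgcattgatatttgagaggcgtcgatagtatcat
SUT488: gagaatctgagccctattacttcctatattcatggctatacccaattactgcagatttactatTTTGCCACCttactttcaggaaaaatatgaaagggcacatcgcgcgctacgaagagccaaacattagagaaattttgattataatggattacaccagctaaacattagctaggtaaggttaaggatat
SUT155: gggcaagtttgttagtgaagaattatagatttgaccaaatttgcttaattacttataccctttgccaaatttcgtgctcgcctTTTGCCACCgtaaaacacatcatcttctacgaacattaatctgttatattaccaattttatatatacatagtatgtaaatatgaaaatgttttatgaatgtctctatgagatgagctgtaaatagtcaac
The element lies 103 bases before the start of SUT508, 119 bases before that of SUT488 and 121 bases before that of SUT155. A match of letters is a description and was not tested as a binding site.

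The SUTs had a median length of 873 bases, with a range of 73 to 4913 bases. Of the 655, 428 overlapped a protein-coding row on the other strand, of which 194 covered its start, and 227 overlapped none. A divergent protein-coding row started within 500 bases of 344 SUTs. Other non-coding rows on the same strand shared bases with 505 SUTs, and 150 SUTs stood alone on their strand. How reads on shared bases were counted is not given in the sources used here. Levels are given as CPM, which here means counts per 1e6 protein-coding counts after TMM scaling. The median SUT had a mean level of 4.08 CPM over the 12 libraries, with a range of 0.0772 to 72.9 CPM. Of the 655 SUTs, 642 passed the filter on low counts and were tested together with all other rows that passed, 11733 in all.

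Totals in protein-coding rows ranged from 18.6 to 61.0 in units of 1e6 counts. The MATa markers MFA1, MFA2, STE2 and BAR1 were at 25.5 CPM or more in every library, and the MATalpha pheromone genes MF(ALPHA)1 and MF(ALPHA)2 were at 2.68 CPM or less. STE3, the MATalpha receptor gene for a-factor, was at 9.65 to 15.8 CPM in pup2-ts, 12.5 to 17.7 CPM in rpn5-ts and 4.84 to 9.92 CPM in WT, and its part in the results was not tested. The library labelled rpn5-ts replicate 1 goes against its label at LYS2 and MET17 (also named MET15). It had 212 CPM of LYS2 and 248 CPM of MET17, against at most 0.18 CPM and 0.09 CPM in the other rpn5-ts libraries. At CAN1 it was near them, with 12.7 CPM against 13.1 to 16.6 CPM, and 174 to 221 CPM in WT. At URA3 it had 81.4 CPM, against 99.9 to 124 CPM in the other rpn5-ts libraries and 3.60 to 4.61 CPM in WT. It also had 0 counts of SUT432 and SUT001, at the left end of chromosome I, where the other 11 libraries had 94 to 370 and 31 to 124 counts, and a count of 0 allows up to 3. MET17 was at 195 to 586 CPM in the pup2-ts libraries, although their label has met15Δ0, and at most at 0.0923 CPM in WT. MET17 RNA thus also separates pup2-ts from WT, and its part in a difference cannot be told apart from that of the ts allele. Only the titles of replicates 3 and 4 of each strain mention DNAse, while the labels' protocol gives a DNAse treatment for all samples. For rpn5-ts, the main count of calls, the share of counts and some named SUTs are also given without the library labelled rpn5-ts replicate 1. Other rpn5-ts fold changes and correlations include that library. Results are split by replicate pair where that changes them.

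SUTs took a smaller share of the RNA in pup2-ts than in WT in both pairs of replicates. Counts in SUTs came to 0.420% and 0.416% of protein-coding counts in pup2-ts replicates 1 and 2, against 0.657% and 0.575% in WT replicates 1 and 2. In replicates 3 and 4 they came to 0.318% and 0.329% in pup2-ts, against 0.381% and 0.383% in WT. In rpn5-ts they came to 0.402%, 0.490%, 0.391% and 0.386% in replicates 1 to 4. The rpn5-ts libraries lay below WT in replicates 1 and 2 and above WT in replicates 3 and 4, where the difference was small. Over all 4 replicates the share was 0.371% ± 0.0548 in pup2-ts, 0.417% ± 0.0489 in rpn5-ts and 0.499% ± 0.139 in WT (SD, n = 4 each), and the pup2-ts and WT ranges overlapped. When the library labelled rpn5-ts replicate 1 was left out the rpn5-ts share was 0.422% ± 0.0586 (SD, n = 3). The share was not tested, and in these bulk samples less RNA per cell and fewer cells that make an RNA cannot be told apart.

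**Figure D1:**
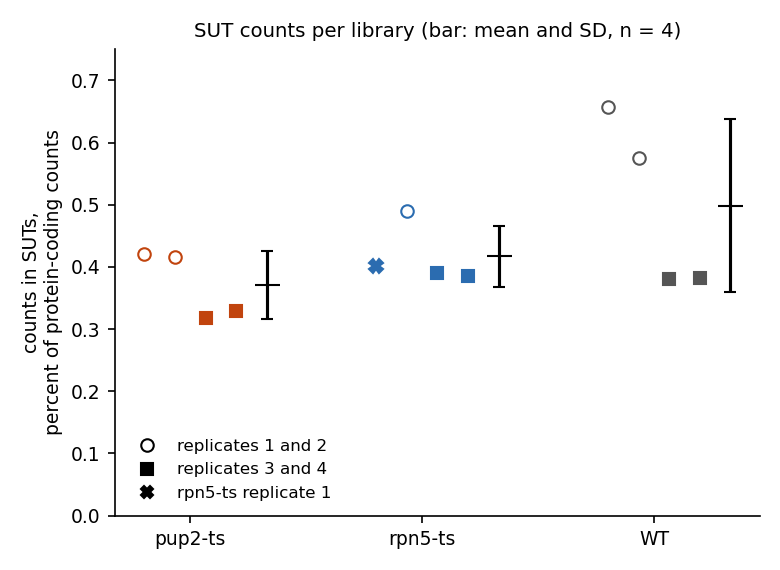
Counts in the 655 SUTs as percent of protein-coding counts (y axis) in each library of pup2-ts, rpn5-ts and WT (x axis), with open circles for replicates 1 and 2, squares for replicates 3 and 4, a cross for the library labelled rpn5-ts replicate 1 and bars for the mean and SD. WT replicates 1 and 2 stand highest at 0.657% and 0.575%, and pup2-ts replicates 3 and 4 lowest at 0.318% and 0.329%.

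Against WT, SUTs in pup2-ts were more often lower than higher. At an adjusted p under 0.05 (edgeR quasi-likelihood test, Benjamini-Hochberg over all rows tested), 17 SUTs rose and 125 fell of 642. That is 22.1% called, beside 20.7% of all rows tested and 17.2% of protein-coding rows. By direction, 2.65% of SUTs rose and 19.5% fell, beside 6.76% and 14% of all rows and 9.72% and 7.48% of protein-coding rows. The median log2 fold change was -0.40 for SUTs, -0.16 for all rows and -0.02 for protein-coding rows, and 506 of the 642 SUTs had a negative one. CUTs and Nrd1-unterminated transcripts moved further down, with medians of -0.77 over 465 rows and -0.56 over 1330 rows. Of the 142 calls, 90 held whichever library was left out, a count that was not taken over all rows. With library sizes taken from all rows, which moves the median of all rows to -0.0023, 34 SUTs rose and 101 fell (all rows 21.5% called), and the SUT median was -0.24.

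In rpn5-ts against WT, 19 SUTs rose and 75 fell, which is 14.6% called beside 13.1% of all rows and 12.9% of protein-coding rows. By direction, 2.96% of SUTs rose and 11.7% fell, beside 5.91% and 7.17% of all rows and 7.93% and 4.92% of protein-coding rows. The median log2 fold change was -0.25 for SUTs, -0.10 for all rows and -0.02 for protein-coding rows. When the library labelled rpn5-ts replicate 1 was left out, 30 SUTs rose and 70 fell, beside 14.8% of all rows called. Of the 94 calls, 35 held whichever library was left out, which was also not counted over all rows. The count was 42 without rpn5-ts replicate 3 (all rows 7.11%), 44 without rpn5-ts replicate 4 (7.57%), 52 without rpn5-ts replicate 2 (8.53%) and 50 without WT replicate 2 (8.68%). With library sizes from all rows, 32 rose and 68 fell (all rows 15.0%), with medians of -0.14 over SUTs and -0.01 over all rows. Between the mutants, rpn5-ts against pup2-ts, 0 of 642 SUTs were called by edgeR, beside 0.0341% of all rows. DESeq2 called 5 SUTs higher in rpn5-ts and 0 lower (all rows 0.522%).

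Counts of calls and medians were also taken within each replicate pair, where the rpn5-ts values for replicates 1 and 2 include the library labelled rpn5-ts replicate 1. With replicates 1 and 2 alone, 9 SUTs rose and 161 fell in pup2-ts against WT (all rows 19.7% called), and 9 rose and 126 fell in rpn5-ts against WT (all rows 17.4%). With replicates 3 and 4 alone, 81 rose and 266 fell in pup2-ts (all rows 58.2%), and 107 rose and 138 fell in rpn5-ts (all rows 49.2%). The median log2 fold change in pup2-ts was -0.42 in replicates 1 and 2 and -0.33 in replicates 3 and 4, and in rpn5-ts it was -0.39 in replicates 1 and 2 and -0.06 in replicates 3 and 4. With the replicate number as a block, 32 SUTs rose and 253 fell in pup2-ts (all rows 40.6%), and 39 rose and 181 fell in rpn5-ts (all rows 34.9%). In replicates 3 and 4 alone, 138 SUTs were higher and 13 lower in rpn5-ts against pup2-ts (all rows 26.1%). The difference of a strain's effect between the replicate pairs passed the threshold for 37 of 642 SUTs in pup2-ts, or 5.76% (all rows 6.66%), and for 12 in rpn5-ts, or 1.87% (all rows 2.07%), shares no higher than those of rows at large.

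**Figure D2:**
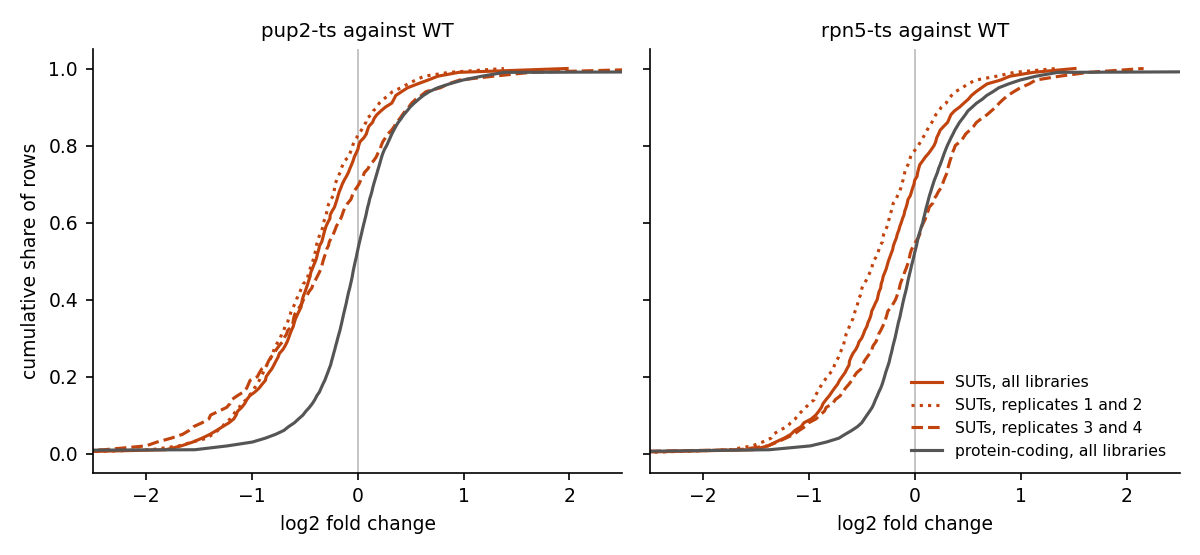
Cumulative share of rows (y axis) by log2 fold change (x axis) for pup2-ts against WT (left) and rpn5-ts against WT (right), for SUTs with all libraries, with replicates 1 and 2 and with replicates 3 and 4, and for protein-coding rows with all libraries. The SUT median in replicates 3 and 4 is -0.33 in pup2-ts and -0.06 in rpn5-ts, and in replicates 1 and 2 it is -0.42 in pup2-ts and -0.39 in rpn5-ts.

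SUT508 rose in pup2-ts together with PRE1, the proteasome beta-subunit gene across the spacer, and SUT488 rose with RPT3, an ATPase subunit gene of the base. SUT508 had 23.3, 25.1, 15.3 and 15.3 CPM in pup2-ts, 21.1, 24.4, 10.3 and 10.8 CPM in rpn5-ts, and 11.4, 7.10, 2.63 and 2.25 CPM in WT, in the order of replicates 1 to 4. Every pup2-ts library stood above every WT library, and in rpn5-ts replicates 3 and 4 lay below WT replicate 1. The log2 fold change of SUT508 was 1.75 ± 0.48 (SE) in pup2-ts (adjusted p = 0.0228, edgeR) and 1.51 ± 0.48 in rpn5-ts (adjusted p = 0.0564), with 0.000834 in rpn5-ts under the replicate block and 0.0144 without WT replicate 1. PRE1 rose by 1.62 in pup2-ts and 1.36 in rpn5-ts on the same scale, with 542 to 591 CPM in pup2-ts, 428 to 524 CPM in rpn5-ts and 174 to 196 CPM in WT.

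SUT488 had 6.46, 7.02, 5.94 and 5.38 CPM in pup2-ts, 5.24, 6.31, 4.72 and 4.08 CPM in rpn5-ts, and 4.36, 3.88, 2.12 and 2.22 CPM in WT. The pup2-ts and WT libraries did not overlap, while rpn5-ts replicate 4 lay below WT replicate 1. Its log2 fold change was 0.98 ± 0.25 in pup2-ts (adjusted p = 0.0156, edgeR) and 0.69 ± 0.25 in rpn5-ts (adjusted p = 0.0823), with 0.01 in rpn5-ts under the replicate block and 0.0338 without WT replicate 1. RPT3 rose by 1.18 in pup2-ts and 0.95 in rpn5-ts. When the library labelled rpn5-ts replicate 1 was left out, the rpn5-ts values were 1.38 (adjusted p = 0.0984) for SUT508 and 0.68 (adjusted p = 0.117) for SUT488.

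SUT155 did not pass in either mutant, while RPN1, which encodes a scaffold of the base, rose by 1.06 in pup2-ts and 0.94 in rpn5-ts. SUT155 had 14.5, 12.4, 9.18 and 7.42 CPM in pup2-ts, 12.6, 11.3, 8.64 and 8.38 CPM in rpn5-ts, and 14.0, 14.0, 7.98 and 7.32 CPM in WT. Levels split by replicate pair and overlapped between strains. Its log2 fold change was 0.01 ± 0.27 in pup2-ts (adjusted p = 0.989, edgeR) and -0.08 ± 0.27 in rpn5-ts (adjusted p = 0.865). All 34 proteasome genes of the list rose in pup2-ts and 33 in rpn5-ts, where RPN5 did not pass, and no SUT lay opposite a proteasome gene. PUP2 in pup2-ts (0.37, adjusted p = 0.0495, edgeR) lost its call without any 1 of 9 libraries, all but pup2-ts replicate 1 and rpn5-ts replicates 1 and 4 (0.0501 to 0.119), and RPN3 in rpn5-ts without WT replicate 4 (0.0531).

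**Figure D3:**
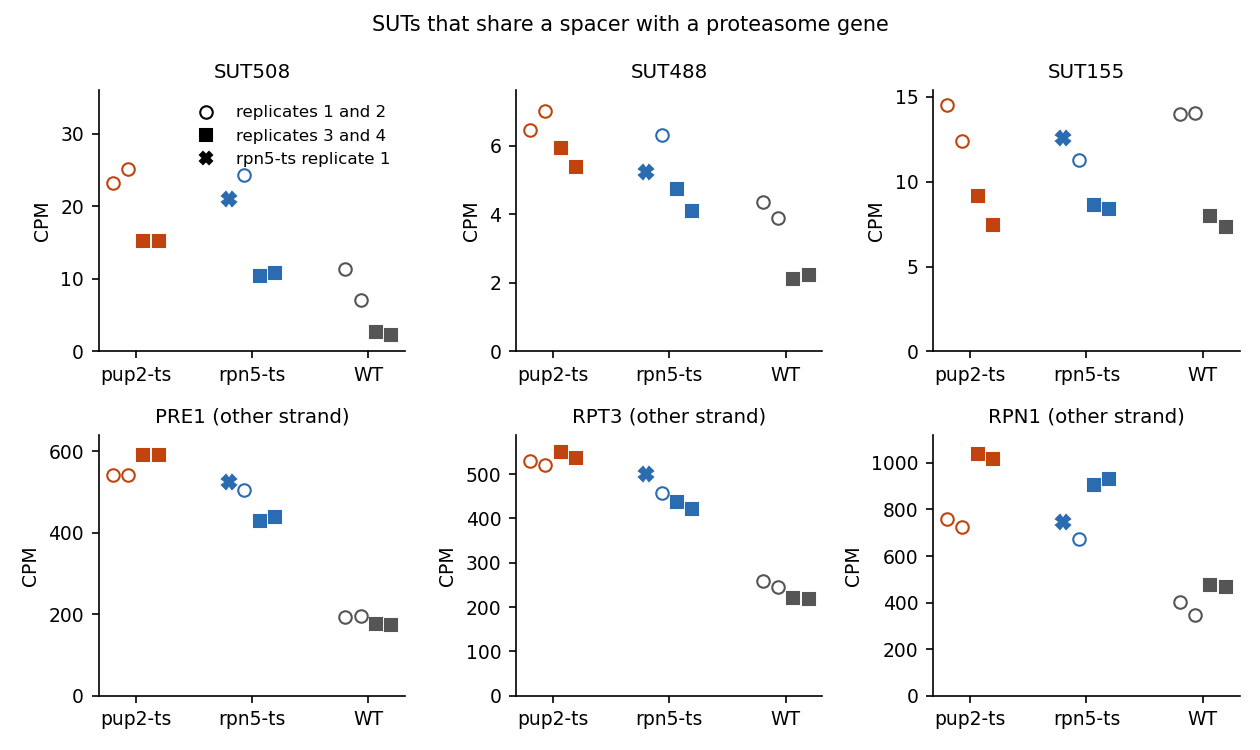
CPM per library (y axes, from 0) of SUT508, SUT488 and SUT155 (top) and of the proteasome gene across the spacer (bottom) in pup2-ts, rpn5-ts and WT (x axes), with symbols for the replicate pairs. SUT508 and SUT488 lie higher in every pup2-ts library than in any WT library, SUT155 does not, and all 3 genes are higher in both mutants.

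Among SUTs at 2 CPM or more in a group and with no overlap between the strains, the largest fall in both mutants was that of SUT041, a transcript of 1569 bases on chromosome IV that runs antisense to HBT1, known for a role in mating projections, and FMP45, a membrane protein of the cell cortex. SUT041 had 0.825, 0.702, 0.521 and 0.603 CPM in pup2-ts, 0.833, 0.989, 0.675 and 0.318 CPM in rpn5-ts, and 5.17, 8.04, 7.15 and 6.88 CPM in WT. No mutant library came near a WT library. The log2 fold change was -3.35 ± 0.29 (SE) in pup2-ts (adjusted p = 1.89e-05, edgeR) and -3.24 ± 0.29 in rpn5-ts (adjusted p = 3.61e-05), or -3.34 when the library labelled rpn5-ts replicate 1 was left out. HBT1 and FMP45 did not pass the threshold in either mutant, with log2 fold changes of -0.16 and 0.17 in pup2-ts and 0.27 and 0.79 in rpn5-ts.

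SUT504, antisense to GLC3, the glycogen branching enzyme gene, fell while GLC3 rose. SUT504 had 2.96, 2.81, 1.56 and 1.39 CPM in pup2-ts, 2.74, 5.18, 9.45 and 8.81 CPM in rpn5-ts, and 10.6, 15.6, 26.6 and 21.2 CPM in WT. Both mutants lay below WT in every library, and replicates 3 and 4 were higher than replicates 1 and 2 in rpn5-ts and WT but not in pup2-ts. The log2 fold change was -3.08 ± 0.43 in pup2-ts (adjusted p = 0.000513, edgeR) and -1.51 ± 0.40 in rpn5-ts (adjusted p = 0.0271), or -1.24 (adjusted p = 0.042) when the library labelled rpn5-ts replicate 1 was left out. GLC3 had 31.6, 35.3, 38.6 and 38.3 CPM in pup2-ts, 45.6, 44.0, 58.6 and 50.2 CPM in rpn5-ts, and 28.0, 16.7, 20.9 and 19.3 CPM in WT, a log2 fold change of 0.76 in pup2-ts and 1.22 in rpn5-ts.

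SUT557 runs antisense to CLD1, a cardiolipin deacylase gene. SUT557 had 5.50, 4.99, 2.40 and 3.02 CPM in pup2-ts, 8.08, 4.05, 3.06 and 3.55 CPM in rpn5-ts, and 17.1, 19.6, 11.8 and 12.1 CPM in WT. The library labelled rpn5-ts replicate 1 was the highest of the mutant libraries and still below WT. SUT557 fell by 1.92 ± 0.35 on the log2 scale in pup2-ts (adjusted p = 0.00275, edgeR) and by 1.68 ± 0.35 in rpn5-ts (adjusted p = 0.00816), while CLD1 rose by 1.44 in pup2-ts and 2.26 in rpn5-ts. CLD1 was at 11.2 to 15.4 CPM in pup2-ts, 11.5 to 30.6 CPM in rpn5-ts and 3.18 to 7.71 CPM in WT. Antisense to FPT1, SUT237 had 3.09, 3.59, 0.730 and 0.603 CPM in pup2-ts, 2.25, 1.93, 0.855 and 0.902 CPM in rpn5-ts, and 7.49, 8.66, 4.06 and 4.96 CPM in WT. It fell by 1.64 ± 0.53 in pup2-ts (adjusted p = 0.0456), a call lost without any 1 of 8 libraries, all but WT replicate 3, pup2-ts replicates 1 and 2 and rpn5-ts replicate 1 (0.0516 to 0.112), and by 2.06 ± 0.55 in rpn5-ts (adjusted p = 0.027), and FPT1 rose by 2.02 and 1.85.

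SUT758 starts 438 bases from PDR18, a transporter gene of the pleiotropic drug resistance family, and runs away from it. SUT758 had 1.20, 1.25, 0.660 and 0.371 CPM in pup2-ts, 2.16, 2.73, 1.26 and 1.64 CPM in rpn5-ts, and 4.81, 5.02, 4.29 and 4.66 CPM in WT. The 3 strains did not overlap. Its log2 fold change was -2.41 ± 0.33 in pup2-ts (adjusted p = 0.000487, edgeR) and -1.26 ± 0.31 in rpn5-ts (adjusted p = 0.0206, and 0.0634 to 0.0658 without rpn5-ts replicate 3 or 4), while PDR18 did not pass (0.26 and 0.14). SUT342 is an intergenic transcript between HOL1, a transporter gene, and BIO4, a biotin synthesis gene. In WT it was more abundant than the other SUTs described here as called lower in a mutant without the replicate block, except SUT452. SUT342 had 15.7, 14.3, 10.4 and 9.84 CPM in pup2-ts, 10.6, 12.7, 8.95 and 9.02 CPM in rpn5-ts, and 71.6, 44.2, 21.8 and 25.1 CPM in WT. WT replicates 1 and 2 were far above WT replicates 3 and 4, and all WT libraries were above all mutant libraries. SUT342 fell by 1.70 ± 0.33 in pup2-ts (adjusted p = 0.00423) and by 1.98 ± 0.34 in rpn5-ts (adjusted p = 0.00298).

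The other falls among the 8 largest in pup2-ts under those conditions on level and overlap were of 1.73 to 1.82 on the log2 scale. SUT627, antisense to SET4, which encodes a SET-domain protein, fell by 1.82 in pup2-ts and 1.43 in rpn5-ts, and SET4 did not pass (-0.39 and -0.42). The rpn5-ts call of SUT627 was lost without WT replicate 1 or 2 or rpn5-ts replicate 2, 3 or 4 (adjusted p from 0.0519 to 0.121). SUT202 shares a spacer with TOH1 and lies antisense to ASG7, an a-cell specific gene, and fell by 1.82 and 1.35. ASG7 was at -0.52 in pup2-ts (adjusted p = 0.0442), a call lost without any 1 of 9 libraries (0.0579 to 0.115). SUT272 is antisense to CRR1, a spore wall gene, and divergent from TUB4, the gamma-tubulin gene, and fell by 1.74 and 1.53, while TUB4 fell by 0.54 in pup2-ts. SUT412 is antisense to PHO85, a cyclin-dependent kinase gene, and divergent from SVL3, and fell by 1.73 and 1.64, while SVL3 fell by 0.55 and 0.62 and PHO85 did not pass (0.22 and 0.14). SUT278, between HAP1, which encodes the haem-responsive activator, and YLR257W, fell by 1.53 in rpn5-ts and was at -1.06 (adjusted p = 0.0787, and 0.0071 under the replicate block) in pup2-ts. SUT197, antisense to NRE1 and divergent from LYS1, was below that level with a mean of 1.74 CPM in WT. It fell by 2.19 in pup2-ts (adjusted p = 0.0388, edgeR) and was chosen after its values were seen. That call was lost without WT replicate 1 or 2 or pup2-ts replicate 1, 3 or 4 (0.0527 to 0.108). LYS1, at 0.42 in pup2-ts, did not pass.

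Among the SUTs that rose and met the same conditions, SUT538 had the largest log2 fold change in both mutants. It starts 189 bases from ATG1, the kinase gene that starts autophagy, and runs away from it. SUT538 had 2.78, 3.20, 5.35 and 5.52 CPM in pup2-ts, 2.34, 2.87, 3.01 and 2.92 CPM in rpn5-ts, and 2.04, 0.832, 0.60 and 0.744 CPM in WT. Neither mutant overlapped WT. The log2 fold change was 1.98 ± 0.37 in pup2-ts (adjusted p = 0.00305, edgeR) and 1.38 ± 0.37 in rpn5-ts (adjusted p = 0.0275), and ATG1 rose by 1.18 and 1.07, the call of ATG1 in rpn5-ts being lost without WT replicate 2, 3 or 4 or rpn5-ts replicate 3 or 4 (0.0713 to 0.0892). SUT305 lies between YKU80 and SPG4, a gene known from survival in stationary phase, and was the highest SUT per length at 68.3 CPM per kb. SUT305 had 26.6, 29.9, 26.4 and 29.6 CPM in pup2-ts, 31.4, 33.0, 23.8 and 19.5 CPM in rpn5-ts, and 21.7, 14.9, 7.29 and 8.28 CPM in WT. The pup2-ts libraries did not overlap WT, and rpn5-ts replicate 4 lay below WT replicate 1. It rose by 1.11 ± 0.30 in pup2-ts (adjusted p = 0.0215) and by 1.04 ± 0.30 in rpn5-ts (adjusted p = 0.0378), where the value when the library labelled rpn5-ts replicate 1 was left out was 0.96 (adjusted p = 0.0714).

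Other SUTs rose in one or both mutants. SUT276, antisense to EST1, a telomerase subunit gene, and divergent from BNA5, a kynureninase gene, rose by 0.86 in pup2-ts and 0.91 in rpn5-ts, and BNA5 rose by 0.86 in rpn5-ts. SUT241, antisense to TGL4, a lipase gene, and TVP38, rose by 0.89 and 0.81, while TGL4 fell by 0.62 in pup2-ts, a call lost without pup2-ts replicate 1 (adjusted p = 0.053). From counts per base summed over the libraries, SUT241 held 2.34% of the read density of TVP38, which was at 0.43 in both. SUT593 rose by 0.92 in pup2-ts. SUT665, antisense to YJU3, a lipase gene, and MBR1, was the most abundant of these and rose by 0.69 in pup2-ts and 0.56 in rpn5-ts, with 42.7 to 52.1 CPM in pup2-ts, 40.2 to 45.3 CPM in rpn5-ts and 25.9 to 32.6 CPM in WT. SUT648, divergent from STE24, a protease gene of a-factor maturation, rose by 1.25 in rpn5-ts and 1.21 in pup2-ts, where it overlapped WT and lost the call without WT replicate 2 or 4 or pup2-ts replicate 3 or 4 (adjusted p from 0.0511 to 0.0634). In rpn5-ts, SUT484, SUT069, SUT490 and SUT536 rose by 1.24, 0.82, 0.81 and 0.73. SUT069 held 0.401% of the read density of HXT3, a glucose transporter gene, and SUT484 1.04% of that of TRR1. The lowest such density among 162 SUTs at least 90% inside a gene on the other strand was 0.307%, for SUT225 in MTR2. The strand setting of the counting is not given in the sources used here, so the part of such reads in a SUT's count was not tested.

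**Figure D4:**
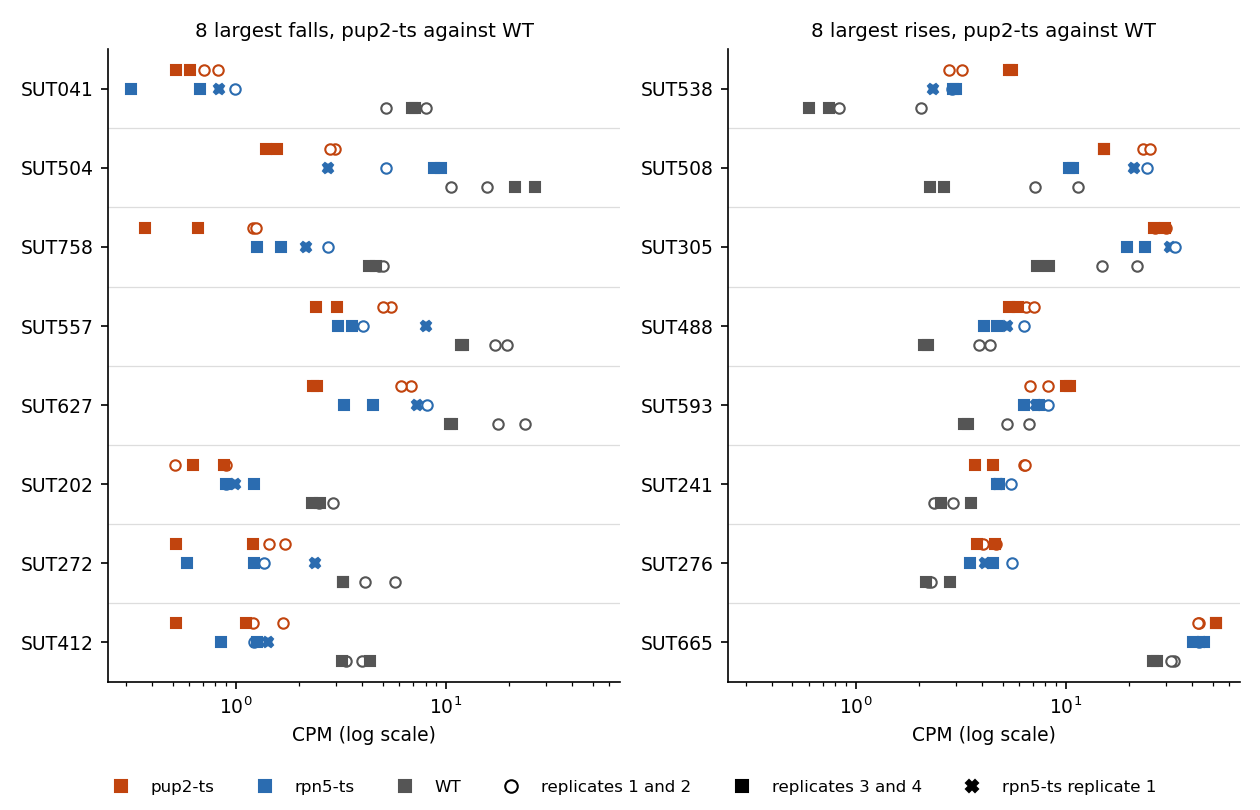
CPM on a log scale (x axes) in each library for the 8 SUTs with the largest falls (left) and the 8 with the largest rises (right) in pup2-ts against WT, with pup2-ts above rpn5-ts above WT for each SUT. The pup2-ts symbols lie apart from the WT symbols for all 16, as the naming rule requires, and SUT041 shows the widest gap, at 0.521 to 0.825 CPM in pup2-ts against 5.17 to 8.04 CPM in WT.

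Some of these calls were close enough to the threshold to be lost when 1 library was left out. In pup2-ts, the call of SUT305 was lost without WT replicate 4 (adjusted p = 0.0525, edgeR) or pup2-ts replicate 4 (0.0537), and that of SUT593 without pup2-ts replicate 3 (0.0501) or 4 (0.0538). In rpn5-ts, SUT538 lost its call without any 1 of replicates 2 to 4 of WT or of rpn5-ts (0.0584 to 0.0786), SUT648 without WT replicate 2, 3 or 4 or rpn5-ts replicate 3 or 4 (0.0529 to 0.0688), and SUT484 without rpn5-ts replicate 2 or 3 (0.0612 and 0.0622). SUT504 lost its rpn5-ts call without WT replicate 3 or 4 or rpn5-ts replicate 2 (0.0598 to 0.0781), and SUT237 without WT replicate 2 or rpn5-ts replicate 2, 3 or 4 (0.0517 to 0.0826). SUT272 and SUT278 lost theirs without WT replicate 1 or 2 or rpn5-ts replicate 2, 3 or 4 (0.0566 to 0.0773 and 0.064 to 0.0846). SUT241 lost its rpn5-ts call without WT replicate 1, 2 or 4 or rpn5-ts replicate 2 or 3 (0.0532 to 0.0633). SUT305 lost its own without WT replicate 2, 3 or 4, pup2-ts replicate 4 or rpn5-ts replicate 1, 2 or 3 (0.0501 to 0.0887), and SUT536 without any of 9 libraries, which were all but pup2-ts replicates 1 and 3 and rpn5-ts replicate 1 (0.0505 to 0.126).

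Set beside their neighbours, SUTs in the mutants against WT had log2 fold changes weakly and positively correlated with those of the gene they diverge from, and weakly and negatively with those of the gene they run antisense to. Over 336 divergent pairs, the log2 fold changes had a Pearson r of 0.225 (Spearman rho 0.261) in pup2-ts and 0.321 (0.327) in rpn5-ts. These pairs include SUT018 with the deleted LYS2, at -10.62 in pup2-ts, a value far from the rest that Pearson r weighs heavily. The r without this pair was not computed. Over 415 antisense pairs, taken with the gene that shares most bases, r was -0.175 (rho -0.129) in pup2-ts and -0.126 (-0.0836) in rpn5-ts. In replicates 3 and 4 against replicates 1 and 2, r was 0.252 (rho 0.259) over the divergent pairs and 0.0161 (rho 0.0534) over the antisense pairs, where of 149 SUTs that were lower the gene was higher for 37 and lower for 40. The pairs share libraries and scaling, and these values describe them without a test. Of 60 divergent SUTs that fell in pup2-ts, the gene fell for 12, rose for 2 and did not pass for 46, and in rpn5-ts the gene fell for 6, rose for 3 and did not pass for 25 of 34. Of 86 antisense SUTs that fell in pup2-ts, the gene rose for 16, fell for 4 and did not pass for 66, and in rpn5-ts the gene rose for 9, fell for 2 and did not pass for 43 of 54. Protein-coding rows as a whole rose in 9.72% and fell in 7.48% in pup2-ts, and rose in 7.93% and fell in 4.92% in rpn5-ts.

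Besides GLC3, CLD1 and FPT1, the genes that rose over a SUT that fell included SUL1, CYB2 and APC11, which were chosen after their values were seen. SUT452, antisense to SUL1, a sulfate permease gene, fell by 1.15 in pup2-ts while SUL1 rose by 2.21. SUT295, antisense to CYB2, the lactate dehydrogenase gene, fell by 1.03 in pup2-ts while CYB2 rose by 1.16. SUT464, antisense to APC11, a subunit gene of the anaphase-promoting complex, fell by 1.35 in pup2-ts while APC11 rose by 0.98. In rpn5-ts SUT464 was at -1.215 and APC11 at 0.81, both called, whereas the pairs at SUL1 and CYB2 were not both called. Of the divergent pairs in pup2-ts, SUT055 fell by 1.13 with NRG1, a repressor gene of glucose control, at -1.56. There SUT570 fell by 1.30 while YHB1, a flavohaemoglobin gene, rose by 1.59. The call of SUT570 was lost without WT replicate 2 or pup2-ts replicate 3 (adjusted p of 0.0508 and 0.0511). SUT802, antisense to FRE5, a ferric reductase family gene, did not pass in either mutant (-0.19 and -0.02), while FRE5 fell by 3.13 in pup2-ts and 3.67 in rpn5-ts.

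**Figure D5:**
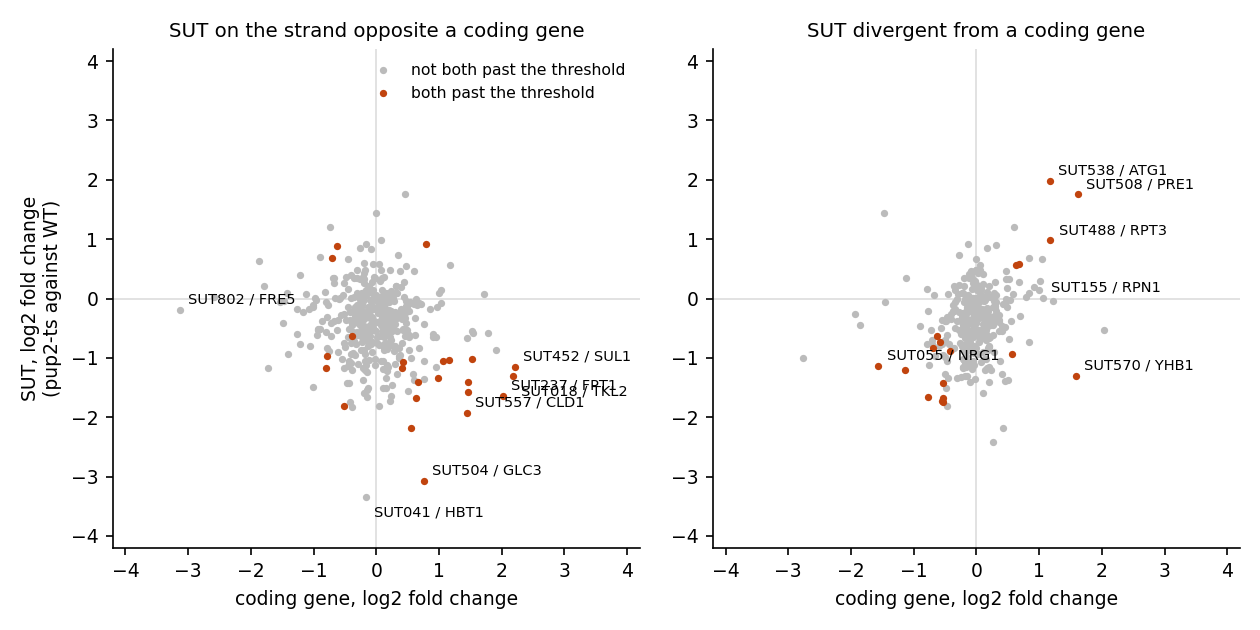
Log2 fold change in pup2-ts against WT of each SUT (y axes) and of its neighbouring gene (x axes), for SUTs antisense to a gene (left, the gene with most shared bases) and divergent from a gene (right), with pairs where both passed the threshold in colour. The pair of SUT018 and LYS2, at a log2 fold change of -10.62 for the deleted LYS2, lies outside the right panel.

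Near the genes that differ by design between the strains, 3 SUTs were measured, and for them the effect of the marker cannot be told apart from that of the ts allele. SUT018 starts 267 bases from LYS2 and runs antisense to TKL2, a transketolase gene. SUT018 had 6.01, 5.11, 8.76 and 7.98 CPM in pup2-ts, 9.68, 6.55, 9.85 and 9.07 CPM in rpn5-ts, and 16.8, 17.9, 18.3 and 16.2 CPM in WT. The library labelled rpn5-ts replicate 1, which has LYS2 RNA, lay within the range of the other rpn5-ts libraries and below WT. SUT018 fell by 1.31 ± 0.19 in pup2-ts (adjusted p = 0.000634, edgeR) and by 0.98 ± 0.19 in rpn5-ts (adjusted p = 0.00578), and TKL2 rose by 2.18 in pup2-ts. In rpn5-ts TKL2 was at 1.93 (adjusted p = 0.0264, edgeR), a call lost without WT replicate 2, 3 or 4 or rpn5-ts replicate 3 or 4 (0.0598 to 0.0814), with 2.25 CPM in the library labelled rpn5-ts replicate 1, below the WT range of 2.45 to 3.91 CPM, and 9.89 to 17.3 CPM in the other 3. SUT571, next to PUP2, fell by 1.14 ± 0.27 in pup2-ts (adjusted p = 0.0125) and was at -0.73 ± 0.27 in rpn5-ts (adjusted p = 0.094, and 0.0144 under the replicate block). SUT786, antisense to HIS3, rose by 0.91 in pup2-ts and 1.02 in rpn5-ts, but it held 3.23% of the level per length of HIS3 and 1.77% of that of YOR203W, which also lies opposite, from mean CPM per kb. HIS3 was itself at 0.79 in pup2-ts and 0.70 in rpn5-ts, and the part of its reads in SUT786 was not tested.

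Replicates 3 and 4 differed from replicates 1 and 2 in about as many SUTs as in rows at large, but mostly downward. Of 642 SUTs, 45 were higher and 274 lower in replicates 3 and 4, which is 49.7% called beside 51.4% of all rows. By direction, 42.7% of SUTs were lower, beside 32.2% of all rows and 32.7% of protein-coding rows, and the median log2 fold change was -0.32 for SUTs and -0.13 for all rows. Lower calls made up 54.9% of the SUTs with no gene on the other strand and 30.2% of those that cover the start of a gene on the other strand. SUT676 and SUT837 had the largest falls, of 1.62 ± 0.16 (adjusted p = 2.1e-06, edgeR) and 1.39 ± 0.12 (adjusted p = 3.5e-07). SUT435, antisense to BDH2, a dehydrogenase gene, had 16.4 to 20.5 CPM in replicates 3 and 4 and 3.43 to 9.46 CPM in replicates 1 and 2, a log2 fold change of 1.82 ± 0.17 (adjusted p = 8.6e-07). SUT802 was also higher, by 0.98, at 47.6 to 58.1 CPM in replicates 3 and 4 and 20.6 to 32.8 CPM in replicates 1 and 2. SUT521, antisense to DMC1, a meiotic recombinase gene, had 4.02 to 7.11 CPM in replicates 3 and 4 and 1.90 to 3.25 CPM in replicates 1 and 2, and rose by 1.10 ± 0.16. SUT416 rose by 1.08 and SUT836 by 0.999, and SUT722, SUT546 and SUT704 fell by 1.38, 1.36 and 1.31. The adjusted p of these SUTs in the mutants against WT lay between 0.163 and 0.975 (edgeR). Under the replicate block SUT676 passed in pup2-ts (adjusted p = 0.00141) and rpn5-ts (0.00239), and SUT704 (0.0194) and SUT546 (0.045) passed in pup2-ts.

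The most abundant SUTs per length after SUT305 were SUT440, SUT143, SUT091, SUT014, SUT355, SUT457 and SUT103. Of these SUT103, antisense to EPL1, a NuA4 subunit gene, was the one called in a mutant without the replicate block, at 0.40 in pup2-ts (adjusted p = 0.0303, edgeR), and that call was lost without WT replicate 2 or 4 or pup2-ts replicate 2, 3 or 4 (0.0518 to 0.0815). SUT014, which is divergent from ORC2, an origin recognition subunit gene, had 73.3, 71.1, 43.6 and 44.5 CPM in pup2-ts, 70.3, 62.6, 43.9 and 40.5 CPM in rpn5-ts, and 117, 105, 62.7 and 64.9 CPM in WT. Within each replicate pair both mutants were below WT, while over all libraries the strains overlapped. Its log2 fold change was -0.59 ± 0.26 in pup2-ts (adjusted p = 0.131, edgeR) and -0.69 ± 0.26 in rpn5-ts (adjusted p = 0.105), and under the replicate block the adjusted p was 5.03e-05 in pup2-ts and 2.93e-05 in rpn5-ts. The block also brought SUT091 past the threshold in pup2-ts (-0.65, adjusted p = 0.00089, edgeR) and rpn5-ts (-0.64, adjusted p = 0.00131), SUT355 in pup2-ts (0.50, adjusted p = 0.0233) and SUT457 in rpn5-ts (-0.60, adjusted p = 0.0156). SUT440, antisense to RPL19B, a ribosomal protein gene, held 2.81% of its read density and stayed between 21.9 and 33.9 CPM in all 12 libraries. SUT001 reached the threshold in rpn5-ts when the library labelled rpn5-ts replicate 1 was left out (1.24, adjusted p = 0.0209), against 0.81 (adjusted p = 0.499) with it.

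The genes that make, end and degrade such transcripts were mostly not called. Of 64 genes for the nuclear exosome, Nrd1 termination, cytoplasmic and nuclear decay, poly(A) termination and chromatin factors known to limit non-coding transcription, 4 rose and 0 fell in pup2-ts, beside 20.7% of all rows called. They were CFT2, a cleavage and polyadenylation factor gene (0.68 ± 0.21, adjusted p = 0.036, edgeR), EAF3 (0.41 ± 0.12, adjusted p = 0.031) and both subunit genes of the histone chaperone FACT, SPT16 (0.52 ± 0.14, adjusted p = 0.0184) and POB3 (0.31 ± 0.09, adjusted p = 0.0229). Each of the 4 lost its call without WT replicate 2, pup2-ts replicate 3 or pup2-ts replicate 4, and CFT2 and EAF3 also without WT replicate 1 or 4 (adjusted p from 0.0508 to 0.114). In rpn5-ts 0 of 64 passed. With the replicate block, 10 rose and 4 fell in pup2-ts (all rows 40.6%), and 9 rose and 17 fell in rpn5-ts (all rows 34.9%), among them 9 of 18 exosome genes that fell. When the library labelled rpn5-ts replicate 1 was left out, HST3 rose and RRP6, NMD2, SET2 and RAP1 fell in rpn5-ts.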

How the data were processed

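Counts of reads per annotated row were deposited by the authors as 1 table of raw counts for 12 libraries; they were made with STAR 2.5.2b and featureCounts (Subread 1.5.1) on sacCer3, per the submitters' processing notes. The strand setting and the handling of reads that map to several places or rows are not given in the sources used here. Row coordinates were compared with the RefSeq R64 genome before sequences were read. All further steps were computed from the counts. Library sizes and TMM factors came from protein-coding rows, spike-in rows were left out, and rows passing filterByExpr were fitted together over all 12 libraries with edgeR 4.0.16 (robust quasi-likelihood test, R 4.3.3), with Benjamini-Hochberg adjustment over all rows tested and a threshold of 0.05. DESeq2 1.42.0 was an alternative, as were other scalings, filters, replicate subsets, a replicate block and each library left out. The fit was tested on simulated counts in which 50 SUTs at each fold were changed in pup2-ts. It called 0% of those changed by a fold of 1.5, 16% at a fold of 2, 72% at 3 and 86% at 4. The simulation gave 90 calls in all, whereas the real fit of pup2-ts against WT called 2432 rows. The adjustment was thus stricter in the simulation, and these rates do not give the sensitivity of the real fit. A SUT that was not called may still have changed by a fold of 2.

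Named SUTs were the 8 largest rises and 8 largest falls in each mutant against WT, and the 5 and 5 largest between the replicate pairs, among called SUTs with a mean of 2 CPM or more in a group and no overlap between groups. They also include the 8 highest per length, those within 2000 bases of a marker or target gene, those divergent from a proteasome gene and those with PACE in the 300 bases before their start. The members and lists were chosen with earlier results of these data known. Genes named beside SUTs outside this rule were chosen after their values were seen.

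Same-numbered libraries of different strains deviated together, with correlations of 0.174 to 0.713 over 12 pairs. Libraries of other numbers within the same replicate pair correlated at 0.378 to 0.742, so the numbers cannot be told apart from the split between replicates 1 and 2 and replicates 3 and 4. Total depth limits low SUTs: SUT counts per library came to 74001 to 233231. The p-values of the main fit measure the spread between these cultures as labelled, which includes the difference between the replicate pairs. Between those pairs 51.4% of all rows were called. The replicate block takes that difference out of the spread.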

Additional observations from a re-analysis of the deposited data

Results flagged for a closer look

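In 3 of 138 groups of 4 libraries looked at, 1 library stood far from the others, where chance gives about 1 in 20. The share of counts in SUTs was 0.49% in rpn5-ts replicate 2 and 0.386% to 0.402% in the other rpn5-ts libraries. SUT241 had 5.46 CPM in rpn5-ts replicate 2 and 4.72 to 4.83 CPM in the others. SUT538 had 2.04 CPM in WT replicate 1 and 0.60 to 0.832 CPM in the other WT libraries.

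For 9 of 45 named SUTs the pup2-ts effect differed between replicates 3 and 4 and replicates 1 and 2 by an interaction test (edgeR, adjusted over all rows), beside 6.66% of all rows. Many of the 45 were named for large changes in these same libraries, so their share cannot be compared with that of all rows. Over all SUTs tested the share, given above, was below that of all rows. The log2 effect was larger in replicates 3 and 4 by 1.94 for SUT538 (adjusted p = 0.0263), 1.76 for SUT648 (0.0171), 1.45 for SUT416 (0.0242), 1.29 for SUT508 (0.0162), 1.28 for SUT593 (0.012), 1.21 for SUT305 (0.0116) and 0.557 for SUT665 (0.0181). The difference was -1.82 for SUT504 (adjusted p = 0.0194) and -1.48 for SUT237 (0.0162), that is, a deeper fall in replicates 3 and 4. In rpn5-ts 0 of 45 passed in edgeR.

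The spike-in rows held 4 counts in WT replicate 4, and 0 to 3 counts in the other libraries.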

How the results depend on the processing

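No call of a named SUT changed sign under the alternatives run. Of 49 named calls, 49 held with relative log expression factors, with library sizes from all rows, with DESeq2, without a filter and with a filter of 1 CPM in 4 libraries, 47 with upper-quartile factors and 20 in a test against a fold of 1.5. Leaving out 1 library lost 0 to 9 of them.

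The number of SUTs called in pup2-ts against WT was 142, and 34 against a fold of 1.5 (all rows 4.86%), 285 with the replicate block, 317 with the replicate pair as a term (44.4%), 347 in replicates 3 and 4 alone and 303 with the replicate block and without rpn5-ts replicate 1 (43.2%). In rpn5-ts against WT it was 94, and 7 against a fold of 1.5 (1.96%), 220 with the replicate block, 243 with the replicate pair as a term (38.5%), 245 in replicates 3 and 4 alone, 207 with the block and without rpn5-ts replicate 1 (32.9%) and 148 with DESeq2 (20.2%). Between rpn5-ts and pup2-ts it was 0, and 1 with the replicate pair as a term (0.366%), 151 in replicates 3 and 4 alone, 35 with the block and without rpn5-ts replicate 1 (5.67%) and 5 with DESeq2. Between the replicate pairs it was 319, and 57 against a fold of 1.5 (7.43%). Leaving out 1 library gave 95 to 152, 42 to 100, 0 to 2 and 275 to 334 calls in these 4 comparisons. Under the replicate block the 39 named calls against WT held and 9 more passed among the SUTs named for the comparison concerned. The cause of these differences was not tested.

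Over SUTs with at least 10% of the density of the gene opposite, the share of counts was 0.312% in pup2-ts and 0.349% in rpn5-ts. For those SUTs it was 0.551%, 0.481%, 0.315% and 0.317% in WT replicates 1 to 4. It was 0.0838% in pup2-ts, 0.0893% in rpn5-ts and 0.105% in WT over SUTs alone on their strand. Per 100 counts in all rows it was 0.363% in rpn5-ts, and 0.568%, 0.495%, 0.331% and 0.333% in WT replicates 1 to 4. The cause was not tested beyond the smaller number of SUTs or the larger total these settings use. The libraries do not resolve small changes of SUTs near 1 CPM.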

Other observations

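SUTs within 20 kb of a chromosome end, 43 tested, fell in 3 cases in pup2-ts and 0 in rpn5-ts (edgeR, beside 14% and 7.17% of all rows), with median log2 fold changes of -0.37 and -0.20. In replicates 3 and 4 against replicates 1 and 2, 55.8% of them were lower. The stress response element AGGGG, searched on both strands in the 300 bases before the start, was held by 126 of 655 SUTs and by 23.3% of protein-coding rows, and 24 of the 121 such SUTs tested fell in pup2-ts, beside 125 of all 642.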
